A study of Mus musculus with 8 samples.

Results

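The loci described here are stretches of the mouse genome where StringTie, a program that builds transcripts from aligned reads, placed a spliced transcript to which it gave no reference identifier. They were chosen by the presence of assembled transcripts in 8 ovary libraries. A transcript counted if it had at least 2 exons, carried no reference identifier and overlapped, on either strand, no transcript with an identifier in any of the 8 assemblies. Spans overlapping on the same strand were merged into loci, and a locus was kept if all 8 libraries held it. Of 18851 multi-exon loci in the series, 9485 lay clear of identified transcripts, and 3490 of these were found in all 8 libraries. The assemblies themselves selected the loci, so their number and their minimum level are a description. Each library came from 1 ovary of a 3-week-old female mouse on the C57/Bl6 background, 4 from wild-type (WT) animals and 4 from animals carrying a global deletion of ghrelin-O-acyltransferase (GOAT KO), and the mice were bred as littermates from heterozygous pairs. Whole ovaries were used, so each library mixes oocytes, granulosa, theca, stromal, vascular and surface cells.

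Splicing joins exons at a donor site, the end of the upstream exon, and an acceptor site, the start of the downstream exon, and a read that spans the join is direct evidence of the intron removed. An assembler connects such reads into transcripts separately in each library, and it names a transcript after an annotated one only where the structures match. GOAT, encoded by Mboat4, attaches the fatty acid that turns des-acyl ghrelin into acyl ghrelin. The juvenile ovary holds a large store of small follicles together with the first growing ones, and its transcriptome is rich in oocyte, granulosa and matrix transcripts.

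The loci had been put forward as unannotated transcripts, and the data went against that name. Of the 3490 loci, 3474 (99.54%) shared at least 1 exact intron with a gene of the GENCODE vM21 annotation of GRCm38, and for 3450 of them that gene was protein-coding. In 2475 loci (70.92%) every intron was listed in GENCODE vM21, a later release than the vM6 that guided the assemblies. The loci are therefore called multi-exon loci without a reference identifier, and only 16 of them shared no intron with an annotated gene. They fell in 2823 genes, of which 2258 held 1 locus and 565 were divided over 2 or more. Csmd1, a very large membrane protein gene, and Vps13c, which encodes a lipid transfer protein, were each divided over 5 loci. A locus covered a median of 46.42% of the span of its gene (quartiles 21.49% and 78.82%). The part left out was mostly upstream, with a median of 8703 bases missing at the 5′ end and 280 at the 3′ end, and 2683 loci began at least 100 bases downstream of the gene's start while 1872 ended at least 100 bases before its end.

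The sequences that carry what is particular to these loci are the joins that GENCODE does not list and the promoters of the few loci that share no intron with its genes. The joins shown are the within-gene joins with most reads, each read in all 8 libraries. Both exon ends of each are known to GENCODE vM21, from whose transcripts the letters come. The last 15 bases before the join are in lower case, and the first 15 bases after it are in capitals.
Nlrp5 (introns chr7:23404180-23409937 and chr7:23407539-23409937, plus strand): aggaacagaagtcagAAAGAAAAATGACTT
Dock4 (intron chr12:40790162-40794767, plus strand): gctcttcaacagtatTCTACTAAAGAAAAT
Ptprk (intron chr10:28569974-28573367, plus strand): gccaactacatcgacGGCTACCAGAGACCA
Clasp2 (intron chr9:113876351-113879941, plus strand): gtagctgatgccctgAAAAAACCTGCTCGA
Usp34 (intron chr11:23361717-23363057, plus strand): ttggaaacaagaaagGGTCCCCAGCAGCGA

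The 2 Nlrp5 joins used donors in different exons whose last 15 bases were identical, so a read with a short stretch on that side could not be assigned to either donor. Of the RefSeq genes (GRCm38.p6) that overlapped these few loci, the promoters of D17H6S56E-5 and Gm11545 are shown. RefSeq lists both as protein-coding where GENCODE vM21 lists no gene or a pseudogene. The bases from the start site on are in capitals.
D17H6S56E-5 (chr17:35000697-35000996, minus strand): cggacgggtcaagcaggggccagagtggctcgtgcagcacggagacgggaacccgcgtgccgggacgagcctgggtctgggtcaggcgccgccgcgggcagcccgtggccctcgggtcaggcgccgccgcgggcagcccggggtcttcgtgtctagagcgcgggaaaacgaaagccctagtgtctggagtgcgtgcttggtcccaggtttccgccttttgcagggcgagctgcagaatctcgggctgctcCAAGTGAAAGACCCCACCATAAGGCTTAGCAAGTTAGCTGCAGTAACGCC
Gm11545 (chr11:94761133-94761432, minus strand): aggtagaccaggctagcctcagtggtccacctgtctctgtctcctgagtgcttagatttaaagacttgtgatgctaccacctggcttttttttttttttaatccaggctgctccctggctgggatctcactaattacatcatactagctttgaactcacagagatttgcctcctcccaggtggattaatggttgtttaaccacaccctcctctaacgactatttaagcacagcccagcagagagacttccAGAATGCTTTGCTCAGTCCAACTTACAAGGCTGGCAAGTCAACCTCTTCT
The start site of D17H6S56E-5 lay 532 bases upstream of the assembled locus and its promoter was 67.0% G or C, while that of Gm11545 lay 2889 bases upstream and its promoter was 46.3% G or C. The median over all 27025 RefSeq promoters of that length was 52.7%.

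Spliced reads numbered between 2586686 and 3239382 per library, and between 17.985% and 18.639% of them fell on the 3490 loci. Counts on genes summed to between 16147216 and 19481798. Mboat4 had 1, 1, 1 and 3 counts in the WT libraries and 5, 7, 7 and 8 in those labelled GOAT KO, which goes against the labels. These are few counts per whole gene, and reads inside and outside the deleted part cannot be told apart, so every direction given here is that of the libraries labelled GOAT KO over those labelled WT. WT 1118 stood apart in its assembly, with 13031 transcripts carrying an identifier against 15879 to 16071 in the other WT libraries. The oocyte markers Zp3 (158.62 to 199.96 CPM, counts scaled to the library total with TMM factors) and Gdf9 (280.3 to 341) and the granulosa marker Inha (3089 to 3946) were high in all 8 libraries. Of the 35 markers of ovarian and other cell types checked, 7 had a locus without an identifier (Oosp1, Nlrp5, Fshr, Muc16, Cdh5, Kdr and Plin1). From the gene counts, an unadjusted p under 0.05 (edgeR) between the groups was found for Nlrp5 (log2 fold change 0.19) and Figla (0.46) of the 5 oocyte markers, Fshr (0.47) of the 5 granulosa markers, all 3 adipose markers and no other marker tested, while Cd3e, Cd79a and Pax8 had too few counts to test. GOAT KO 1139 had 96.6 CPM of Adipoq against 0.29 to 2.99 in the other libraries, 286 of Fabp4 against 4.82 to 14.3, and 31.3 of Plin1 against 5.44 to 17.5. Of the theca and steroidogenic markers, it had 233 CPM of Star against 8.13 to 31.9 in the other libraries, and 600 of Cyp17a1 against 42.3 to 355. The sum of Adipoq, Plin1 and Fabp4 was 12.8 to 25.1 CPM in the WT libraries and 17.7 to 414 in those labelled GOAT KO.

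In exon number and in FPKM the loci were close to those of identified genes, and their spliced transcripts were shorter and held fewer spliced reads. The longest transcript of a locus had a median of 7 exons, as it did over the 8719 multi-exon loci with an identifier, and 3 over the 5995 unidentified loci found in fewer libraries. The median span was 18697 bases against 16691 and 5635, and the median spliced length 1875.5 bases against 2670 and 615. The level, as FPKM (reads scaled to transcript length and library size, summed over the transcripts of a locus) given by StringTie, had a median of 14.5 against 14.3 in identified loci. The loci had a median of 569 spliced reads over the 8 libraries (quartiles 276 and 1321) against 807 (193 and 2173) in identified loci, which did not have to be present in all 8 libraries, and each had at least 1 in every library. Loci with 2 exons numbered 260, and 1024 had 10 or more. Just outside the rule, 811 loci were held by 7 libraries, with a median of 185 reads, and 1747 were held by a single library, with a median of 18. Among loci of a single library, 10.59% shared no intron with GENCODE, against 0.46% in all 8.

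**Figure D1:**
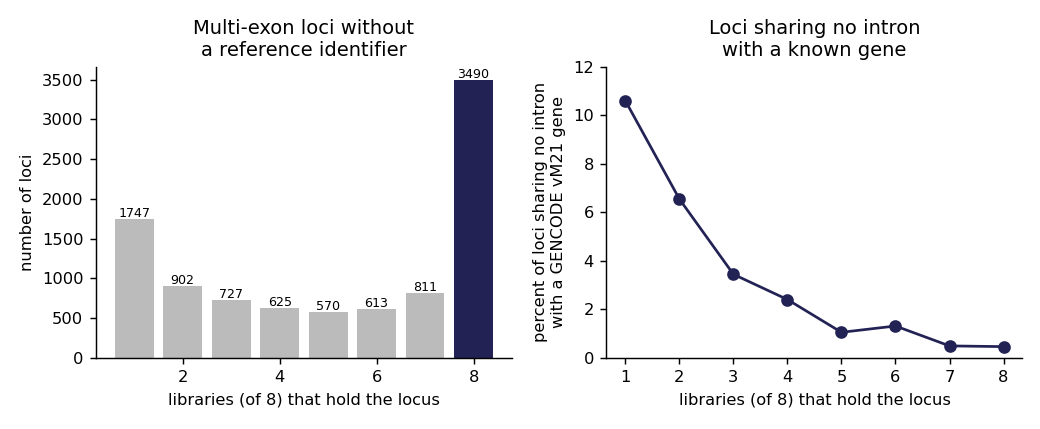
Left, number of multi-exon loci without a reference identifier by the number of libraries that held them; right, percent of these loci that shared no intron with a GENCODE vM21 gene. The 3490 loci in all 8 libraries form the largest group, and the share outside known gene structures is 10.59% in loci of 1 library and 0.46% in loci of all 8.

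The loci lay on both strands (1743 plus, 1747 minus) of every autosome and of the X chromosome. Their shares per chromosome differed from those of identified loci. Chromosome 13 held 185 (5.3%) of them against 243 (2.79%) of the identified loci, chromosome 10 held 206 (5.9%) against 368 (4.22%), and chromosome 14 held 160 (4.58%) against 256 (2.94%). Chromosome 11, by contrast, held 219 (6.28%) against 813 (9.32%), and chromosome 5 held 184 (5.27%) against 658 (7.55%). These shares are a description, and no test was made of them. The nearer of the annotated genes beside a locus began or ended a median of 8762 bases away (quartiles 2554 and 23214).

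**Figure D2:**
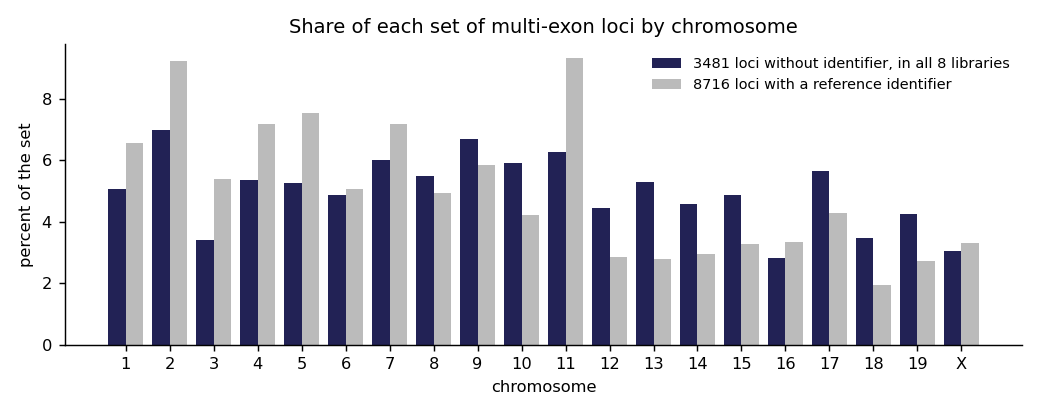
Percent of the loci without an identifier (dark) and of the loci with an identifier (grey) on each chromosome; loci on unplaced sequences and patches are left out. Chromosomes 8 to 10, 12 to 15 and 17 to 19 hold larger shares of the loci without an identifier, and chromosomes 1 to 7, 11, 16 and X smaller shares.

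Introns that GENCODE does not list were few and thinly read. They made up 1587 of 33176 introns (4.784%) in the 3474 loci of known genes, and 32812 of 4186933 spliced reads (0.784%). They were spread over 999 loci, with a median of 3 reads over the 8 libraries against 70 for a listed intron, and 95 were read in every library. A known donor with a new acceptor was used in 524, a known acceptor with a new donor in 467, and neither site was known in 111. The remaining 485 joined known sites in a new pair, 439 of them within 1 gene. Of these 439, 309 passed over 1 annotated exon, 57 over 2 and 47 over 3 or more, and in 26 the sites belonged to different transcripts. The share of reads on unlisted introns was 0.95% in WT 1118 and 0.703% to 0.815% in the other libraries.

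Nlrp5, which encodes a maternal effect protein of the oocyte, had 20 introns in its locus, 14 of them listed. The join over 3 exons had 38, 29, 29 and 37 reads in the WT libraries and 27, 37, 31 and 34 in those labelled GOAT KO. Taken against the listed introns at the same sites, it made up 43.9% ± 1.44 (SD, n = 4) of reads in WT and 41.2% ± 4.26 (SD, n = 4) in GOAT KO. The groups overlapped, and the join over 1 exon made up 38.4% ± 4.70 and 39.5% ± 9.31 in the same order. In the other genes shown above, the deposited junction lists held few or no reads on the annotated alternative. An intron missing from a list is counted as 0 here, and whether reads crossed it was not tested. Dock4, a guanine nucleotide exchange factor for small GTPases, had 56, 35, 16 and 26 reads across the unlisted join in WT and 18, 22, 23 and 23 in GOAT KO, and 0 on the listed introns of those sites in any library. Ptprk, a receptor tyrosine phosphatase, had 189 reads on its join and Clasp2, a microtubule-binding protein, 183, again with 0 on the listed introns. Usp34, a deubiquitinase, had 99 reads on the join and 3 on listed introns. Ehbp1, an endocytic adaptor whose sequence is not shown, was similar, with 75 reads on a join that made up 92.6% ± 5.91 (SD, n = 4) in WT and 96.9% ± 3.79 (SD, n = 4) in GOAT KO.

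In other genes the unlisted join and the listed introns were used side by side. For Ano4, a member of the anoctamin membrane protein family, the join made up 39.5% ± 11.38 (SD, n = 4) in WT and 52.6% ± 7.95 (SD, n = 4) in GOAT KO, and for Arhgef11, a guanine nucleotide exchange factor for small GTPases, 20.1% ± 12.68 and 39.3% ± 5.69. Both pairs of groups overlapped. Oma1, a mitochondrial inner membrane protease, had 2, 1, 1 and 3 reads on its join in WT and 5, 8, 5 and 3 in GOAT KO, or 12.2% ± 4.91 and 26.5% ± 5.35 of reads at those sites. The Oma1 shares did not overlap (7.4% to 17.4% against 21.7% to 34.0%), but they rest on 28 reads and were not tested.

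The other 46 unlisted pairs joined sites of different genes, over a median of 99233.5 bases, and the most-read of them joined genes of the same family. Joins between Serpinb1a and Serpinb1c, serine protease inhibitor genes, had 567 and 551 reads, the join of Cfhr2 to Gm16332 in the complement factor H family had 404, and that of Fbxw14 to Fbxw28, F-box genes, had 297. The first Serpinb1a join had 66, 67, 36 and 81 reads in WT, and the listed introns at its acceptor 66, 69, 35 and 84. Sequence identity between such genes and the placing of reads with more than 1 match were not analysed here, so these joins are uncertain. Gprasp1 and the neighbouring Gprasp2 and Bhlhb9, genes of a related family on the X chromosome, were joined by 237 reads, with 15 to 28 in the WT libraries and 26 to 60 in those labelled GOAT KO. Against the listed introns at the same sites the join made up 47.0% ± 3.37 (SD, n = 4) and 52.2% ± 3.99 (SD, n = 4), and the groups overlapped. In WT the join had 15, 23, 25 and 28 reads, the listed introns 16, 29, 26 and 32 at its donor and 15, 34, 25 and 31 at its acceptor. In GOAT KO the values were 26, 33, 60 and 27, then 22, 22, 66 and 26, and 26, 26, 59 and 28. This join and its shares are uncertain for the same reason.

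The 16 loci sharing no intron with a GENCODE gene were shorter and more weakly read, with a median of 3.5 exons, 1320 spliced bases and 253 reads. Of these, 5 lay on genome patches absent from the annotation file, 6 overlapped a gene on the same strand without sharing an intron, 3 overlapped a gene on the opposite strand only, and 2 overlapped none. The locus with most reads (3361) lay on a patch and had 10 exons. The same-strand genes were the pseudogenes Gm2058, Gm11545 and AC098880.2, the non-coding RNA gene 4930539M17Rik, and Gm9833 and Cdh24, which GENCODE lists as protein-coding. Cdh24 encodes a cadherin. The locus at chr7:84012415-84024185 on the plus strand ran opposite to Cemip, a hyaluronan-binding protein gene, and overlapped the RefSeq non-coding gene Gm30440. Over 4 exons and 255 reads, its level in RPM (reads across its introns, scaled to the spliced reads of the library with TMM factors) was 8.69, 11.5, 11.7 and 6.89 in WT and 8.48, 15.8, 12.6 and 13.8 in GOAT KO. The locus at chr10:108444183-108445073 on the minus strand ran opposite to the non-coding gene Gm36283 and overlapped Gm36440 of RefSeq.

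The locus at chr17:34998563-35000214 on the minus strand overlapped the RefSeq gene D17H6S56E-5, whose promoter is printed above. It lay 772 bases from Vars, the valyl-tRNA synthetase gene, and 12671 bases from Lsm2, an RNA-binding protein gene. Its single intron had 12, 20, 12 and 18 reads in WT and 19, 20, 28 and 27 in GOAT KO. In RPM this gave 4.74, 6.74, 4.25 and 5.90 against 7.01, 7.52, 8.60 and 9.58, and every library labelled GOAT KO was above every WT library. The log2 fold change was 0.59 ± 0.298 (SE) with an unadjusted p = 0.0715 (edgeR's quasi-likelihood test), so the difference did not pass the threshold. None of the 16 loci passed it. When the fit was restricted to introns read in every library, this locus passed with 0.62 and an unadjusted p = 0.0219 (edgeR). The locus in Cdh24 also passed, with -0.71 and an unadjusted p = 0.0266 (edgeR, -0.74 and 0.0609 in the fit over all introns). Both loci have a single intron, read in every library, so the restriction left their reads unchanged. Only the set of other reads in the fit changed, and nothing is read from these passes.

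The loci with most reads belonged to abundant ovarian transcripts. Ddb1, a DNA damage-binding protein and ubiquitin ligase adaptor (chr19:10605470-10626007), had 1737, 1543, 1328 and 1596 RPM in WT and 1369, 1524, 1482 and 1517 in GOAT KO over 21 exons, every intron listed. Lrp1, an endocytic receptor, followed with 43 exons at chr10:127546252-127573527, and then Rpl8, a protein of the large ribosomal subunit, at chr15:76904348-76906320. The others were Psap (lysosomal prosaposin), Col6a1 (collagen VI), Ltbp3 (a binding protein for latent TGF-beta), Myh11 (smooth muscle myosin), Aplp2 (an amyloid precursor-like protein), Ptprd (a receptor tyrosine phosphatase) and Lamp1 (a lysosomal membrane protein). The groups overlapped for all 10, and their log2 fold changes lay between -0.26 (Ptprd) and 0.12 (Col6a1). Ptprd varied most among WT libraries, from 411 in WT 1120 to 931 in WT 1118.

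The longest loci were Rbms3, an RNA-binding protein gene, with 679785 bases, Magi1, a scaffold of cell junctions, with 608397, and Ptprm, a receptor phosphatase of cell contacts, with 544833. Despite their span they had 8, 14 and 7 exons in the longest transcript. Many exons were found in Rnf213, a very large ubiquitin ligase (48), and Lrp1 (43). Rnf213 had 618, 623, 729 and 639 RPM in WT and 602, 521, 577 and 535 in GOAT KO. Every GOAT KO library was below every WT library, with a log2 fold change of -0.22 ± 0.082 (SE) that was under the 0.5 asked for. The gene counts of Rnf213 gave -0.23 ± 0.076.

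To ask whether the loci differed between genotypes, spliced reads were summed per locus and compared by edgeR's quasi-likelihood test over all 13443 multi-exon loci with enough reads. The threshold of the study was used (unadjusted p under 0.05 and absolute log2 fold change over 0.5). Of the 3395 loci without an identifier that were tested, 81 (2.39%) passed, beside 2.23% over all loci. Reads were higher in the libraries labelled GOAT KO for 43 (1.18% over all loci) and lower for 38 (1.06% over all loci). No locus had a Benjamini-Hochberg adjusted p under 0.05 (0% over all loci), the smallest being 0.943, and DESeq2 gave 1 adjusted call, Grik3. An unadjusted p under 0.05 was found for 153 of the 3395. The same held for 309 of 7405 loci with or overlapping an identified transcript, and for 116 of 2643 unidentified loci found in fewer libraries. Without WT 1120, 130 of 3415 loci passed the threshold, and the share over all loci in that fit is not given here. The median log2 fold change was -0.014, beside -0.007 over all loci, and the median absolute value 0.14 beside 0.141. All GOAT KO libraries were above all WT libraries in 58 loci (1.71%, beside 1.59% over all loci) and below in 46 (1.35%, beside 1.62%). The 95 loci not tested had at most 105 reads each. These are whole ovaries, so fewer cells of a type and less RNA per cell cannot be told apart.

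**Figure D3:**
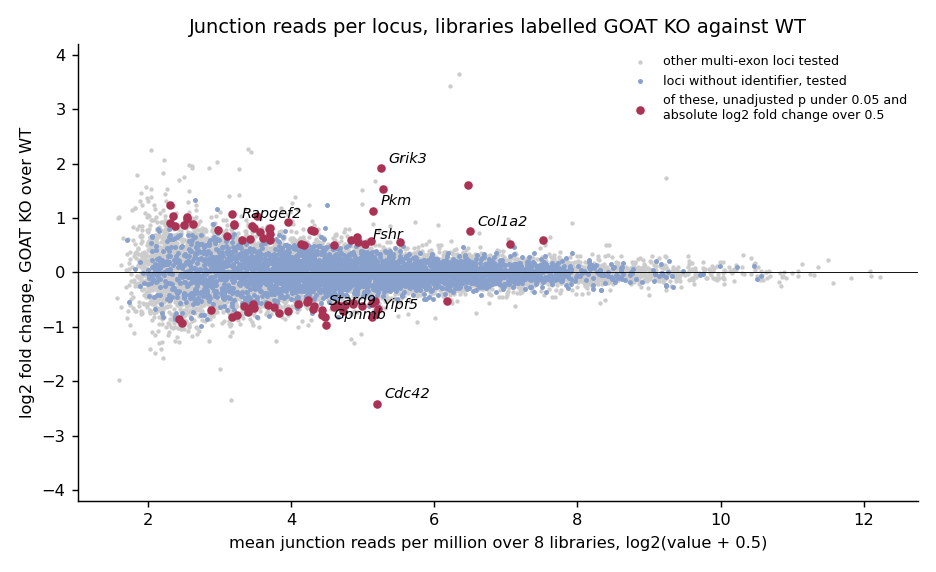
Log2 fold change of spliced reads per locus (vertical) against mean level over the 8 libraries (horizontal, log2 of RPM + 0.5); grey, other loci; blue, loci without an identifier; red, the 81 of these that passed the threshold. Grik3 (1.92) and Cdc42 (-2.42) are the named loci farthest from 0.

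Among loci whose groups did not overlap, the smallest p of the higher ones belonged to Col1a2, an alpha chain of type I collagen (chr6:4536286-4537551). Its 2 introns had 40.7, 66.8, 75.5 and 83.3 RPM in WT and 116, 110, 118 and 107 in GOAT KO. Reads were higher in GOAT KO, with a log2 fold change of 0.75 ± 0.175 (SE) and an unadjusted p = 0.00106 (edgeR's quasi-likelihood test, adjusted p = 0.943). A neighbouring segment of Col1a2 (chr6:4537772-4541538) gave 0.16 ± 0.094, and the gene counts gave 0.28 ± 0.081. Rapgef2, an exchange factor for Rap GTPases (chr3:79091814-79173070), had 5.93, 5.73, 7.45 and 5.25 in WT and 10.7, 12.8, 12.3 and 9.58 in GOAT KO, a rise of 0.89 ± 0.259. No intron of this locus was read in every library, so a fit restricted to such introns could not be made. The other segment of Rapgef2 gave 0.01 ± 0.223 and the gene counts 0.04 ± 0.072. Tubgcp3, a component of the gamma-tubulin complex (chr8:12637682-12653493), rose by 0.57 ± 0.174, but over the 4 introns read in every library the value was 0.09, and the call was also lost without WT 1118 (0.50) or GOAT KO 1141 (0.45). The other segment of Tubgcp3 gave 0.08 ± 0.133 and the gene counts 0.05 ± 0.058. Zp2, an egg coat glycoprotein (chr7:120141787-120146092), had 57.3, 68.1, 79.1 and 77.1 in WT and 107, 83.9, 102 and 98.3 in GOAT KO. The groups of Zp2 did not overlap, with a log2 fold change of 0.47 ± 0.126 that was under 0.5, and 0.61 over the 3 introns read in every library. The other segments of Zp2, toward the 3′ end, gave -0.08 ± 0.117 (chr7:120137202-120141251) and -0.06 ± 0.137 (chr7:120132338-120136325), and the gene counts 0.14 ± 0.069. The 5 oocyte markers summed to 662 to 794 CPM in WT and 671 to 809 in GOAT KO, and their part in this difference was not tested. Erbb2, a receptor tyrosine kinase (chr11:98412493-98427092), gave 0.45 ± 0.133, and 0.17 over the introns read in every library and 0.03 ± 0.111 from the gene counts.

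Of the lower loci, Gpnmb, a transmembrane glycoprotein of macrophages and melanocytes (chr6:49036624-49058091), had 33.2, 30.7, 22.3 and 29.5 RPM in WT and 7.74, 17.3, 22.1 and 11.7 in GOAT KO. It fell by 0.96 ± 0.277 on the log2 scale, with an unadjusted p = 0.00472 (edgeR's quasi-likelihood test, adjusted p = 0.943), and the gene counts gave -0.64 ± 0.247. Over the 3 introns of Gpnmb read in every library the value was -0.59 with an unadjusted p = 0.0635 (edgeR), so the call was lost. Leukocyte markers lay at 13.2 to 19.4 summed CPM in WT and 10.5 to 14.9 in GOAT KO (4 genes, of which Ptprc and Cd68 were tested and had p over 0.05, with Cd3e and Cd79a at or near 0 and not tested), and their part in this difference was not tested. Bmper, a secreted regulator of BMP signalling (chr9:23223371-23485201), had 32.8, 29.3, 27.3 and 25.6 in WT and 21.02, 22.6, 17.5 and 12.8 in GOAT KO. Bmper fell by 0.64 ± 0.196 (by 0.50, no longer past the threshold, without GOAT KO 1146), with the same value over the 4 introns read in every library and -0.38 ± 0.138 from the gene counts. Yipf5, a Golgi membrane protein on chromosome 18, fell by 0.77 ± 0.189 while its gene counts gave -0.05 ± 0.063. Stard9, a kinesin-like protein gene (chr2:120680183-120706942), fell by 0.69 ± 0.183, but over the introns read in every library the value was -0.16 and the gene counts gave -0.08 ± 0.081. Afg3l2, a mitochondrial protease gene on chromosome 18, had 174 to 186 in WT and 142 to 150 in GOAT KO, a log2 fold change of -0.28 ± 0.077.

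**Figure D4:**
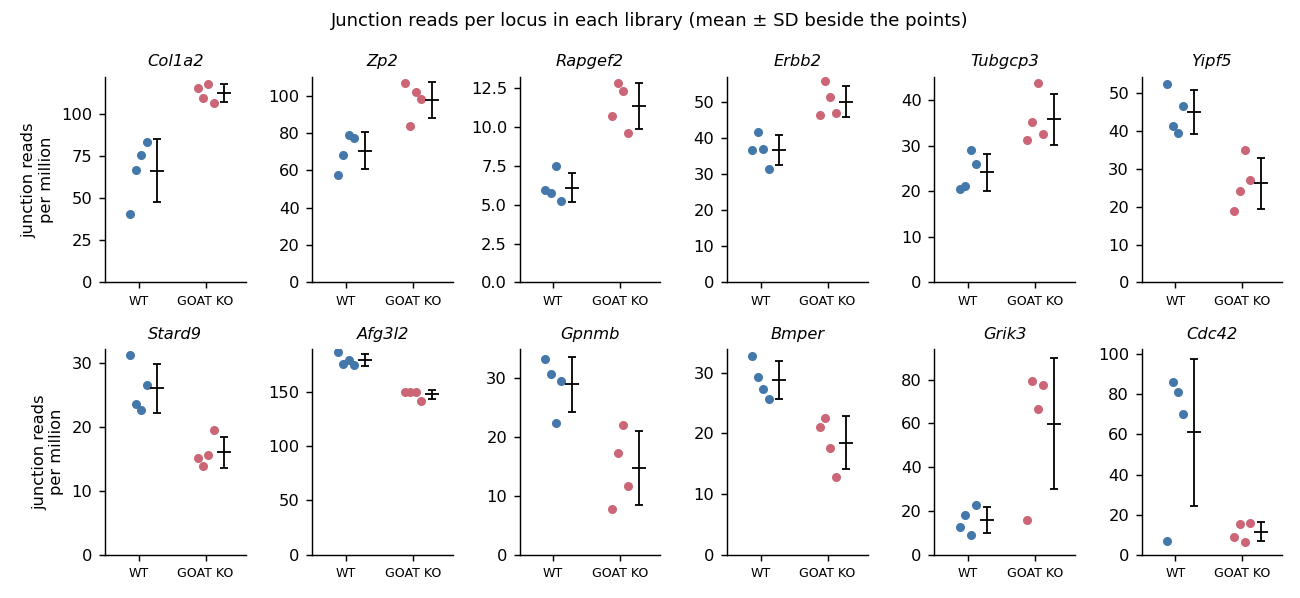
RPM of 12 loci in each library (points; blue, WT; red, libraries labelled GOAT KO), with mean ± SD (n = 4) beside them. In the first 10 panels no GOAT KO library overlaps the WT libraries; Grik3 and Cdc42 each have 1 library on the other group's side.

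Each intron was also tested on its own. Over 66015 introns tested, 2.97% passed the threshold, and of the 15254 in the loci without an identifier 429 (2.81%) passed, in 368 loci. A single one had an adjusted p under 0.05 (0.00757% over all introns). It was intron 10 of the 13 in Afg3l2, with 36, 56, 50 and 45 reads in WT and 0 in each library labelled GOAT KO (unadjusted p = 1.4e-06, adjusted p = 0.0269, edgeR's quasi-likelihood test). The intron before it had 12 to 21 reads in WT and 13 to 26 in GOAT KO, and the intron after it 21 to 32 and 17 to 26. Without intron 10 the locus gave -0.10, and the gene counts of Afg3l2 gave 0.03 ± 0.057. The alignments were not analysed here, so a 0 is an intron missing from the deposited junction list of a library. Whether reads crossed it was not tested, and no fold is given.

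Introns with many reads in some libraries and 0 in others occurred in both groups. Of 3434 introns of these loci with 50 reads or more in some library, 365 (10.63%) had 0 in another, and the same held for 1426 of 15874 introns (8.98%) of other loci. Zeros fell in 1 library for 203 introns and in 4 libraries for 27, of which 1 had its zeros in the 4 GOAT KO libraries and 0 in the 4 WT. In other loci they fell in 4 libraries for 87 introns, of which 2 had them in the 4 WT libraries and 0 in the 4 GOAT KO. WT 1118 held most of them, with 143 against 56 to 101 in the others. In Cdc42, a small GTPase of cell polarity (chr4:137319701-137336365), the intron chr4:137329125-137332406 had 0, 231, 214 and 212 reads in WT and 0 in every GOAT KO library. The locus accordingly had 7.11, 86.0, 81.2 and 70.2 RPM in WT and 8.85, 15.4, 6.45 and 15.6 in GOAT KO. It fell by 2.42 ± 0.563 on the log2 scale (adjusted p = 0.943 by edgeR, and 0.00462 without WT 1118), while the gene counts gave -0.01 ± 0.063. Pkm, the pyruvate kinase of muscle and growing cells (chr9:59671475-59678435), had 5, 0, 122 and 0 reads on its second intron in WT and 100, 116, 94 and 102 in GOAT KO. The locus rose by 1.13 ± 0.502, or by 2.27 without WT 1120 (adjusted p = 0.00386 by edgeR). It no longer passed the threshold when any other library was left out (0.85 to 1.18). The introns read in every library gave 0.16 and the gene counts 0.09 ± 0.071. The locus of Nop16, a nucleolar protein gene, fell by 0.83 ± 0.201 and gave -0.25 over the introns read in every library and 0.01 ± 0.102 for the gene counts. Cdc42, Pkm and Nop16 were chosen after their values were seen.

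**Figure D5:**
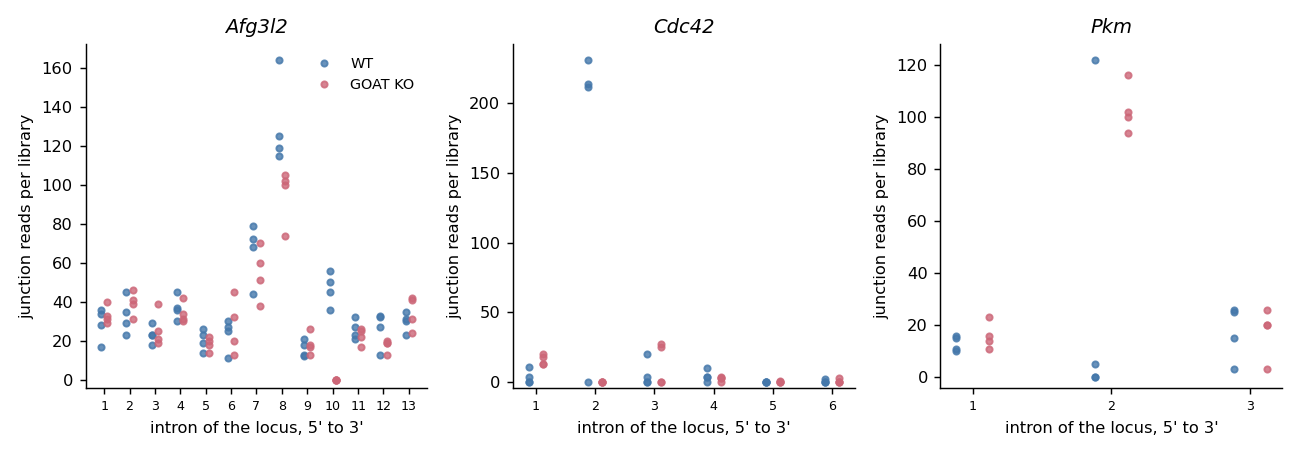
Reads across each intron of the Afg3l2, Cdc42 and Pkm loci in each library, in order from the 5′ end (blue, WT; red, libraries labelled GOAT KO). Intron 10 of Afg3l2 is at 0 in all GOAT KO libraries and at 36 to 56 in WT, while intron 2 of Cdc42 is at 0 in the GOAT KO libraries and in 1 WT library.

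The smallest p among the loci without an identifier, 0.000745, belonged to Grik3, a kainate-type glutamate receptor subunit (chr4:125490590-125714173), named after its values were seen. It had 12.6, 18.2, 9.22 and 22.6 RPM in WT and 15.9, 79.3, 66.3 and 77.7 in GOAT KO. GOAT KO 1140, 1141 and 1146 were above every WT library, and GOAT KO 1139 lay within the WT range. The log2 fold change was 1.92 ± 0.426 (SE), with an adjusted p = 0.943 by edgeR's quasi-likelihood test and 0.0252 without GOAT KO 1139. The gene counts of Grik3 gave 1.52 ± 0.311. C3, the central complement protein, also chosen after its values were seen, was divided over 2 loci, which rose by 1.61 ± 0.565 and 1.54 ± 0.42, or gave 0.58, no longer past the threshold, and 0.97 without GOAT KO 1139. GOAT KO 1139 had 336 RPM on the first of these against 36.9 to 81.2 in the other GOAT KO libraries and 27.0 to 64.9 in WT. That library also had the highest counts of the adipose markers and of Star and Cyp17a1 given above. The part of these markers in the result was not tested.

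Collagen genes, taken as a group after their values were seen, held 34 loci in 17 genes, and segments of 1 gene are not independent. Of these loci, 3 rose (1.18% over all loci) and none fell (1.06% over all loci). The 3 were the first Col1a2 segment and 2 segments of Col1a1. With each library left out in turn between 2 and 5 rose and none fell. The third Col1a1 segment no longer passed without WT 1118, 1120 or 1121 or GOAT KO 1141 or 1146 (0.47 to 0.50), while the fourth passed without WT 1119 (0.57) or GOAT KO 1140 (0.58). A positive log2 fold change was found in 28 of the 34, beside 48.8% of all loci, and the median was 0.16 beside -0.007 over all loci. Col1a1, the other chain of type I collagen, was divided over 4 segments that gave 0.27, 0.60, 0.53 and 0.46 from the 5′ end on. The segment at chr11:94941227-94943398 had 118, 187, 128 and 146 RPM in WT and 210, 170, 251 and 245 in GOAT KO, so 1 library of each group fell within the range of the other. Fshr, the receptor for follicle-stimulating hormone in granulosa cells, rose by 0.52 ± 0.233, with 18.2 to 32.3 in WT and 28.02 to 51.8 in GOAT KO. The call was lost without WT 1118 (0.38), 1119 (0.57) or 1121 (0.51) and without GOAT KO 1140 (0.46) or 1146 (0.33). The 5 granulosa markers summed to 3535 to 4558 CPM in WT and 3798 to 4375 in GOAT KO, most of it Inha (3089 to 3946 over all libraries). From the gene counts Amh gave -0.21 ± 0.11, Foxl2 -0.17 ± 0.189, Inha 0.09 ± 0.089 and Cyp19a1 0.22 ± 0.767. The part of these markers in the Fshr difference was not tested. Of the other marker genes, Nlrp5 gave -0.03 ± 0.14, Oosp1, an oocyte-secreted protein gene, 0.02 ± 0.153, Kdr and Cdh5 of endothelium -0.01 ± 0.135 and -0.10 ± 0.205, Muc16 of surface epithelium -0.31 ± 0.331 and Plin1 of adipocytes 0.71 ± 0.457.

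To ask whether genes beside the loci differed, the nearest annotated gene on each side was taken from the gene counts. Of 5470 such neighbours, 3159 were tested and 51 (1.61%) passed the same threshold, beside 1.67% over all genes. Counts were higher for 36 (0.958% over all genes) and lower for 15 (0.717% over all genes), and after Benjamini-Hochberg adjustment none remained under 0.05 (0.0241% of all genes did), the smallest adjusted p being 0.418 by edgeR's quasi-likelihood test. At an unadjusted p under 0.05 there were 130 of the 3159, and the share over all genes at that level is not given here. Cldn10, a tight junction protein 37 bases from the locus of Dzip1, had 1.11, 1.44, 1.48 and 1.36 CPM in WT and 2.51, 2.32, 2.61 and 2.44 in GOAT KO and rose by 0.87 ± 0.164. Masp2, a protease of the lectin complement pathway beside the locus of Srm, rose by 2.60 ± 0.554, with 0.49 to 1.05 in WT, 0.72 in GOAT KO 1139 and 4.03 to 6.33 in the other 3. Spp1, a secreted phosphoprotein beside Pkd2, fell by 0.61 ± 0.143, and Stpg1, beside Nipal3, fell by 1.09 ± 0.273. Ltbp1, a binding protein for latent TGF-beta beside Rasgrp3, gave 0.40 ± 0.078. Of the 48 neighbours of the loci named by rule, 28 were tested and none passed, with log2 fold changes from -0.42 to 0.16.

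On chromosome 4, where Grik3, Cdc42, Masp2 and Stpg1 lie, 91 loci without an identifier fell between 100 and 150 Mb, and 6 of the 90 tested passed the threshold (2.23% over all loci), 2 of them higher (1.18% over all loci). That window was set after the values were seen and holds the genes just named, so nothing is read from its count. Within 5 Mb of Mboat4 there were 5 loci, and none of them passed.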

How the data were processed

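The authors isolated total RNA from 1 snap-frozen ovary per animal and sequenced single reads of 50 bases. Per the submitters' processing notes, reads were aligned to mm10 (GRCm38) with TopHat2 2.0.14 and transcripts were assembled with StringTie 1.0.4, per library and guided by GENCODE vM6 according to the file headers. The authors deposited raw read counts per splice junction and per gene symbol, neither of them normalized, and the share of mapped reads as a percent of all reads (85.92% to 87.02%). Coverage and FPKM of each assembled transcript were computed by the authors with StringTie and are read from the deposited assemblies. The counting tool and the use of strand are not given in the sources used here, so overlapping genes and near-identical copies may share reads.

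Loci were built by the rule given in the report, and introns were matched by exact coordinates to GENCODE vM21. An intron counted in 2 overlapping loci (2174 cases) was kept with the locus without an identifier. Locus, intron and gene counts were fitted with edgeR 4.0.16 (R 4.3.3, TMM scaling, filterByExpr with a minimum of 10 counts and 15 in all, quasi-likelihood test, Benjamini-Hochberg adjustment over all loci, introns or genes tested), without covariates. The SE was obtained from the log2 fold change and the F statistic. The script was tested on simulated counts. RPM are reads across introns scaled to all spliced reads of the library, and CPM are gene counts scaled to the library total, both with TMM factors. The share of an unlisted join is its reads over its reads plus the mean of the reads on listed introns at its donor and at its acceptor. An intron missing from a junction list was counted as 0. Libraries of the same group differed by more than sampling noise (chi-square 3.08 to 10.8 per locus), and each counted as 1 replicate.

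The loci named by rule are the 10 with most reads, any with an adjusted p under 0.05, the 5 higher and the 5 lower with smallest p among those without overlap between groups, the 3 longest, the 3 with most exons (1 of which is not reported here), their neighbour genes and the 5 neighbour genes with smallest p. Others are said to have been chosen after their values were seen, as were the gene families and the joins. The loci, lists and tests were all chosen with earlier results of these data known. The alternatives were RLE size factors, DESeq2 1.42.0, no filter, library sizes from gene counts, single introns, other rules for a locus, each library left out, and 6 libraries (without WT 1120 and GOAT KO 1139, since the study left out 1 library of each group, which earlier results of these data pointed to). Sequences of whole loci and of the repeats in them were not analysed here, and the authors' own comparisons were not used.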

Additional observations from a re-analysis of the deposited data

Results flagged for a closer look

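Among 146 groups of 4 libraries checked for a value far from the other 3, 8 were flagged, and chance alone flags about 1 in 20. The assembly of WT 1118 accounted for 3 of them. It held 13031 transcripts with a reference identifier, against 15879 to 16071 in the other WT libraries, 22651 multi-exon transcripts without one, against 19177 to 19444, and 7499 transcripts in the 3490 loci, against 6676 to 6764.

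Of single loci, Afg3l2 had 141.57 RPM (reads across its introns, scaled to the spliced reads of the library) in GOAT KO 1146 against 149.22 to 149.65 in the other GOAT KO libraries, a small difference in a tight group. The Pkm locus had 57.79 in WT 1120 against 7.11 to 12.14 in the other WT libraries. The middle Zp2 segment had 185.3 in WT 1118 against 130.12 to 138.28 in the other WT libraries. The third Col1a1 segment had 139.56 in WT 1119 against 94.43 to 100.7. The first C3 locus had 335.52 in GOAT KO 1139 against 36.9 to 81.22.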

How the results depend on the processing

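The number of loci was 3612 with overlap judged on exons, 3230 with 3 exons or more and 3645 to 3800 with any library left out. It was 6109 when 4 libraries were enough, 2 when no GENCODE vM21 gene may be overlapped and 16 when no intron may be shared with one (added after the data were seen). Loci past the threshold numbered 81, and 59 (DESeq2) to 120 (6 libraries) under the other fits per locus, 55 to 130 with a library left out (55 without WT 1118, 130 without WT 1120) and 368 when any of the 15254 introns tested sufficed. Over introns read in every library, added after the data were seen, 82 passed. Adjusted calls numbered 0, but 1 with DESeq2, 2 in the 6 libraries, 1 per intron and 0 to 1 with a library left out (1 without WT 1118, WT 1120 or GOAT KO 1139). Neighbour genes past the threshold numbered 51, with 43 to 75 when a library was left out, 73 in the 6 libraries and 99 without the filter on low counts. For these other fits the share over all loci or genes is not given here.

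Of 335 values for the 24 loci reported by rule, 314 kept direction and side of the threshold, 6 lost it, 5 gained it and 10 changed sign. The sign changed in Ltbp3 (-0.06 to 0.0046 with a library left out, 0.0046 without GOAT KO 1146), Myh11 (-0.15 to 0.0078, with 0.0078 without WT 1118, 0.00058 without GOAT KO 1140 and 0.00021 without GOAT KO 1141), Aplp2 (-0.05 to 0.09, with -0.03 in the 6 libraries, -0.05 without WT 1120 and -0.0014 without GOAT KO 1140), Lamp1 (-0.11 to 0.03, with 0.03 without WT 1118) and Ptprm (-0.3 to 0.13, with 0.13 without WT 1118 and 0.02 without GOAT KO 1140). The cause was not tested. No paired analysis was possible because the WT and GOAT KO libraries share no replicate numbers. With 50-base reads, few reads span an intron, and the 95 loci that could not be tested had at most 105 reads each.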

Other observations

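Gene families other than collagens, also chosen after their values were seen, are given by their counts, beside 2.23% of all loci past the threshold (1.18% higher and 1.06% lower). Zinc finger genes (Zfp) gave 57 loci in 51 genes, of which 51 were tested, with 1 lower and a median log2 fold change of -0.03. Solute carriers gave 49 loci in 45 genes, with none past the threshold among 48 tested and a median of 0.05. Kinesins, the microtubule motors, gave 32 loci in 23 genes, with 1 lower and a median of -0.08, and the 13 loci of 7 Dock genes gave none and a median of -0.11. Ribosomal protein genes gave 13 loci in 11 genes, of which 11 were tested, with 1 higher and a median of -0.06. The median over all loci was -0.007.

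Other unlisted joins read in all 8 libraries passed over 1 annotated exon of Daam2, a formin-like regulator of the actin skeleton (57 reads, 69.7% ± 32.17 (SD, n = 4) of reads at those sites in WT and 85.6% ± 9.69 (SD, n = 4) in GOAT KO), or over 2 exons of Firre, a non-coding RNA gene of the X chromosome built of repeats (60 reads, 60.0% ± 13.33 and 54.8% ± 12.14). Joins with a minor share were found in Stx16, a syntaxin of vesicle fusion (23.2% ± 12.29 and 17.0% ± 11.13), and Tex14, a protein of germ cell bridges (21.4% ± 7.71 and 14.1% ± 9.11). The groups overlapped in each of these 4 genes. The Firre join had 6, 8, 6 and 2 reads in WT and 23, 2, 3 and 10 in GOAT KO. Listed introns at its acceptor had 6, 8, 6 and 6, and 23, 6, 6 and 12, with 0 at its donor. The placing of reads with more than 1 match was not analysed, so the Firre shares are uncertain.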
